A study of Mus musculus with 7 samples.

Results

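The neurotrophins and their receptors were followed as 8 genes in single cells of the mouse trigeminal ganglion. The ligand genes were Bdnf, Ntf3 and Ntf5, and the receptor genes were Ntrk2, Ntrk3, Ngfr, Sort1 and Sorcs2. They were taken by symbol from the 32285 genes of the deposited matrix, and all 8 were found there. The library was made from trigeminal ganglia of wild-type mice at postnatal day 3.5 with the droplet method of 10x Genomics, and the labels name neither the strain nor the sex nor the number of animals. The series also has 6 molar libraries at postnatal day 7.5, 3 from controls carrying Fgfr2fl/fl and 3 from Gli1-CreER;Fgfr2fl/fl animals, all from mice given tamoxifen, and these were not analysed here. With 1 library there is no replicate error, so no test was made. Every interval below is an exact 95% interval that covers counting error only.

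The trigeminal ganglion holds the cell bodies of the sensory neurons of the face, mouth and teeth. Neurotrophins are secreted proteins that keep sensory neurons alive and shape their endings, and they are made as longer precursors that proteases cut. Brain-derived neurotrophic factor (Bdnf) and neurotrophin-4 (Ntf5) bind the tyrosine kinase TrkB, the product of Ntrk2. Neurotrophin-3 (Ntf3) binds TrkC, the product of Ntrk3. All neurotrophins bind p75NTR, the product of Ngfr, which pairs with Trk receptors and, together with sortilin (Sort1) or SorCS2 (Sorcs2), binds the uncut precursors. In sensory ganglia TrkB is known from touch neurons and TrkC from muscle and touch afferents. Ntrk2 and Ntrk3 are also transcribed into forms that lack the kinase domain, and counts per gene cannot tell these forms apart.

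A UMI (unique molecular identifier) marks 1 captured RNA molecule. Of 13065 barcodes, 9427 had at least 1000 UMIs, at least 500 genes and no more than 20% of their UMIs from mitochondrial genes. Among these, 375 were deep neurons, with at least 20000 UMIs and a summed Tubb3, Stmn2 and Prph level of at least 30 per 10000 UMIs. Their totals ran from 20111 to 330393 UMIs with a median of 96005. A further 6314 barcodes passed the marker gate of exactly 1 other class. Levels are given as CPM, the UMIs of a gene in every 1000000 UMIs of the class, which is a share of the class total and not an amount per cell. The gated deep neurons carried the neuron genes that the gate did not use. Isl1, a sensory neuron transcription factor, stood at 181 CPM against 3.52 CPM in the other classes, and Elavl4, a neuronal RNA-binding protein, at 359 against 6.96 CPM. RNA of other cells was also present: deep neurons held 73.6 CPM of the satellite glia gene Fabp7 and 2488 CPM of the globin gene Hbb-bs, and the part of this RNA in the results was not tested. Of the 375 deep neurons, 49 passed the gate of another class as well, and results that turn on them are given without them too. In erythroid-like cells, which should lack all 8 genes, Ntrk2 stood at 8.90, Ntrk3 at 10.4, Ngfr at 9.64, Sort1 at 5.93, Sorcs2 at 3.56, Bdnf at 3.26 and Ntf3 at 0.593 CPM. These values are used as the background of free RNA. Deep neurons had a median of 96005 UMIs against 9886.5 in these cells, so equal CPM is not equal UMIs per cell. UMIs of the 8 genes in the 9427 kept barcodes numbered 14735 for Ntrk2, 10076 for Ntrk3, 7453 for Sort1, 6949 for Ngfr, 4486 for Sorcs2, 3535 for Bdnf, 728 for Ntf3 and 30 for Ntf5. Ntf5 is therefore given by its counts only.

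On mm10, Ntrk2 lies at chr13:58806569-59133970 on the plus strand and Ntrk3 at chr7:78175959-78738012 on the minus strand. Ngfr lies at chr11:95568818-95587735 (minus), Sort1 at chr3:108284082-108361511 (plus) and Sorcs2 at chr5:36017180-36398139 (minus). The ligand genes lie at chr2:109674700-109727007 (Bdnf, plus), chr6:126101412-126166910 (Ntf3, minus) and chr7:45413695-45417179 (Ntf5, plus). Ntrk2 overlaps 1 other annotated gene on its own strand and 3 on the opposite strand, Ntrk3 overlaps 2 and 2, and Sort1 overlaps 1 and 1. Sorcs2 overlaps 2 genes and Bdnf overlaps 1, all on the opposite strand, while Ntf3, Ntf5 and Ngfr overlap none. The labels and headers do not say whether the counting used the strand, so reads of such overlapping genes cannot be told apart.

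Promoter windows of 300 bases, from 250 before a transcription start, were available from RefSeq (GRCm38.p6) for 4 of the 8 genes, with 7 windows for Bdnf, 2 for Ntf3 and 1 each for Ntrk2 and Ngfr. The Ntrk2 window and 1 Bdnf window are shown because single-neuron levels of Ntrk2 are set beside Runx3 below, and because Bdnf has many alternative starts that the gene count adds together. In the Ntrk2 window, chr13:58806319-58806618 on the plus strand, the capitals mark the core letters bound by RUNX factors, TGTGGT, which begin 234 bases before the start.
Ntrk2: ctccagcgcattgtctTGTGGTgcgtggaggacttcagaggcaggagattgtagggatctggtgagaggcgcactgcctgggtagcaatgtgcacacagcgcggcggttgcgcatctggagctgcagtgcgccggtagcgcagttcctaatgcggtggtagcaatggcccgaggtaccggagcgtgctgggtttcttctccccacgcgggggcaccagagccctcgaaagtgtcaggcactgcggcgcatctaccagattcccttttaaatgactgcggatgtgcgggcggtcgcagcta
In the Bdnf window, chr2:109692186-109692485 on the plus strand, the capitals mark a variant of the cyclic AMP response element, TCACGTCA, which begins 38 bases before the start.
Bdnf: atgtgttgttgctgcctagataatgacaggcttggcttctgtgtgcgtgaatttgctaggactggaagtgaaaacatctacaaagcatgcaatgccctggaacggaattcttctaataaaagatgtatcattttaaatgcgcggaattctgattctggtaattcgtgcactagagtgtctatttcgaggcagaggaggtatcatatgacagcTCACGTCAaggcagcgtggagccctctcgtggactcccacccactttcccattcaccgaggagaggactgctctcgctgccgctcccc
Searched on both strands, TGTGGT occurred in 16.8% of all 32851 windows and TCACGTCA in 0.441%. TGTGGT was not found in the Bdnf, Ntf3 and Ngfr windows, TCACGTCA was found in no other of the 11 windows, and the full element TGACGTCA, held by 1.79% of all windows, was in none of the 11. The 3 motifs do not share a match in these windows, and a match is a description of the letters only.

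Ntrk2 was highest in glia, not in neurons. It stood at 626 CPM (602 to 651) in 302 satellite glia-like cells, the flat cells that wrap neuron bodies, and 293 of them (97.0%) held a UMI. In 51 astrocyte-like cells it stood at 561 CPM (510 to 617), and the intervals of these 2 classes overlapped. Mural-like cells, the contractile cells of small vessels, followed at 329 CPM (281 to 381) and fibroblast-like cells at 225 CPM (218 to 232). Deep neurons held 68.9 CPM (66.2 to 71.8), so that satellite glia-like cells held 9.08 times the neuronal share (8.59 to 9.61). Fibroblast-like cells carried 33.6% of all gated Ntrk2 UMIs, satellite glia-like cells 19.7% and deep neurons 18.1%. Such shares, here and below, also depend on how many cells and UMIs were recovered in each class. Endothelial-like cells (12.3 CPM) and B lineage-like cells (4.34 CPM) had intervals that overlapped that of the erythroid-like cells.

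Ntrk3 had another distribution. It was highest in fibroblast-like cells at 169 CPM (163 to 175), followed by low-myelin Schwann-like cells at 97.8 CPM (93.8 to 102), astrocyte-like cells at 87.4 CPM (67.8 to 111) and oligodendrocyte lineage-like cells at 73.0 CPM (65.2 to 81.4). Deep neurons held 68.4 CPM (65.7 to 71.2), and their interval overlapped that of the oligodendrocyte lineage-like cells. Satellite glia-like cells, the leading class for Ntrk2, held Ntrk3 at 4.33 CPM (2.56 to 6.84), below the erythroid-like background. Low-myelin Schwann-like cells are barcodes with a list of 5 Schwann cell genes, among them Scn7a, Cdh2, Sox10 and Erbb3, above its gate and a summed myelin level under 100 per 10000. All 5 were detected, but only Sox10 and Erbb3 were raised 2-fold over the other classes and none was among the 10 leading genes. These 10 do hold Ednrb, one of the 4 genes of the satellite glia gate, so the name stands for the gate only and not for a cell type read from leading genes. Against satellite glia-like cells, these Schwann-like cells held 22.6 times the Ntrk3 share (14.3 to 38.2) and 11.9 times the Ngfr share (7.66 to 19.5), whereas satellite glia-like cells held 8.08 times the Ntrk2 share (7.61 to 8.59).

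Ngfr was highest in deep neurons at 98.1 CPM (94.8 to 101), which held 55.2% of its gated UMIs. Low-myelin Schwann-like cells at 57.1 CPM (54.1 to 60.3) and fibroblast-like cells at 55.7 CPM (52.5 to 59.1) came next and overlapped each other. Mural-like cells at 20.9 CPM (10.4 to 37.4) and myelinating Schwann-like cells at 11.2 CPM (9.48 to 13.2) followed, with intervals that overlapped each other and that of the erythroid-like cells. In satellite glia-like cells Ngfr stood at 4.81 CPM, under that background.

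Of the sortilin family genes, Sort1 was led by Schwann-like cells, while no single class led Sorcs2. Sort1, a sorting receptor that also binds precursor neurotrophins, was highest in myelinating Schwann-like cells at 116 CPM (110 to 122), followed by low-myelin Schwann-like cells at 99.5 CPM (95.5 to 104) and by neutrophil- or monocyte-like cells at 91.1 CPM (74.97 to 110). Deep neurons held 29.4 CPM (27.6 to 31.2), close to cartilage- or bone-like cells at 29.5 CPM (24.2 to 35.6). Sorcs2 was highest in low-myelin Schwann-like cells at 72.6 CPM (69.2 to 76.2), fibroblast-like cells at 70.0 CPM (66.3 to 73.8) and cartilage- or bone-like cells at 64.5 CPM (56.5 to 73.3), with neighbours overlapping. In CPM it was at the erythroid-like level in deep neurons, with 3.48 CPM (2.89 to 4.16) against 3.56 CPM (2.28 to 5.30) in erythroid-like cells. Per cell it stood at 0.323 against 0.0386 UMIs, and the part of free RNA was not tested.

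**Figure D1:**
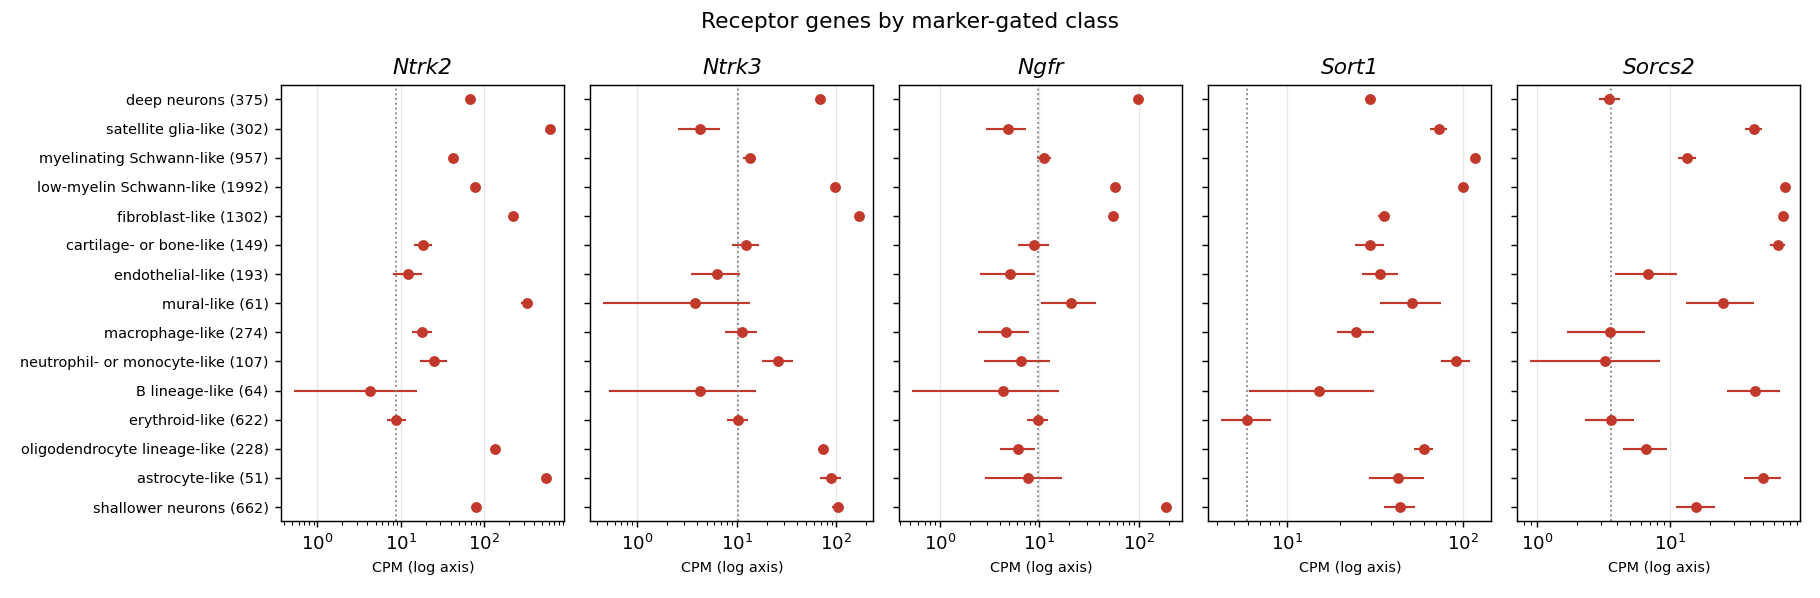
Levels of the 5 receptor genes (CPM, log axis) in each gated class, with the number of cells in brackets; points are summed UMIs over summed totals, bars are exact 95% Poisson intervals and the dotted line is the erythroid-like level. Ntrk2 peaks in satellite glia-like cells (626 CPM), Ntrk3 in fibroblast-like cells (169 CPM), Ngfr among the main classes in deep neurons (98.1 CPM) and Sort1 in myelinating Schwann-like cells (116 CPM), while the shallower neurons at the bottom enter no comparison.

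Against the 6314 other gated cells as 1 pool, 3 of the 8 genes were higher in deep neurons by at least 2-fold with an interval that left out 1, and 2 were lower. The same criterion called 20.9% of the 19400 genes with at least 20 UMIs higher and 34.5% lower. Bdnf was higher in neurons, with 80.7 against 6.07 CPM and a ratio of 13.3 (12.1 to 14.6). Ntf3 stood at 13.4 against 2.49 CPM, a ratio of 5.38 (4.55 to 6.36), and Ngfr at 98.1 against 33.3 CPM, a ratio of 2.94 (2.80 to 3.1). Sort1 stood at 29.4 against 66.9 CPM, a ratio of 0.439 (0.410 to 0.469), but it was 3.09 times higher in neurons when counted in UMIs per cell. Sorcs2 stood at 3.48 against 45.8 CPM, a ratio of 0.0760 (0.0629 to 0.0911). Ntrk2 (68.9 against 131 CPM, ratio 0.528) and Ntrk3 (68.4 against 76.9 CPM, ratio 0.889) did not meet the criterion. Ntrk2 did meet it, as lower, without the 49 deep neurons that passed another gate: its neuronal level was then 46.3 CPM and the ratio 0.355 (0.335 to 0.375). It also met it as lower with a neuron gate of 60 (0.445), among the 281 neurons lowest in glial markers (0.410) and with the other gates doubled (0.480). These 49 neurons held 289 CPM of Ntrk2, and the part of glial RNA in that value was not tested. The glial markers and the low-myelin Schwann-like gate both count Scn7a and Cdh2, found in 360 and 350 of the 375 deep neurons. Both filters may thus leave out neurons for genes that nearly all neurons held. A deep neuron carried on average 92638 UMIs against 13168 in another gated cell, so every ratio is 7.04 times larger (2.81 on the log2 scale) in UMIs per cell than in CPM. In UMIs per cell 7 of the 8 genes were higher in neurons and none was lower, where 74.3% of all 19400 genes were higher and 5.28% lower on that scale, with ratios of 3.71 for Ntrk2, 6.25 for Ntrk3 and 0.535 for Sorcs2.

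Among single deep neurons the Trk genes were concentrated in few cells. Ntrk2 ran from 0 to 192 UMIs with a median of 0, and the 38 neurons with the most Ntrk2 UMIs held 85.6% of its neuronal UMIs. This ranking, used for each gene here, is by raw UMIs and not corrected for depth. For Ntrk3 the range was 0 to 195 UMIs with a median of 1 and its 38 highest neurons held 68.9%, and for Ngfr it was 0 to 187 UMIs with a median of 1 and 64.7%. Bdnf was spread more evenly, from 0 to 58 UMIs with a median of 4 and 38.8% in its 38 highest neurons. Sort1 was spread likewise, from 0 to 20 UMIs with a median of 2 and 35.4%.

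To compare detection at equal depth, each neuron was thinned to 20000 UMIs. At least 1 UMI was then found in 26.7% of the 375 neurons for Ntrk2 (22.3 to 31.4, Clopper-Pearson), 38.9% for Ntrk3 (34.0 to 44.1), 41.6% for Ngfr (36.6 to 46.8), 42.4% for Sort1 (37.3 to 47.6) and 7.73% for Sorcs2 (5.24 to 10.9). Without thinning the shares were 41.9%, 58.7%, 61.6%, 76.8% and 17.6%. Of the 622 erythroid-like cells, only 30 reached 20000 UMIs (median 24466 against 96005 in the neurons before thinning), and their thinned shares were 16.7% (5.64 to 34.7), 20% (7.71 to 38.6), 13.3% (3.76 to 30.7), 30% (14.7 to 49.4) and 13.3% (3.76 to 30.7) in the same order. Of the 5 receptors, only Ngfr had an interval in neurons that did not overlap that of its background. The Sorcs2 share was lower than its background, with overlapping intervals. This background cannot decide what a single UMI means, because it rests on 30 deep cells and doublets were not removed. Of all 622 erythroid-like cells, unthinned at a median of 9886.5 UMIs, 6.91%, 5.31%, 7.23%, 4.50% and 2.89% held the genes in the same order. Thinning also removed a larger part of the UMIs in neurons than in these 30 cells. A single UMI of Ntrk2, Ntrk3 or Sort1 is therefore not taken here to mark a neuron as expressing the gene. The levels in high neurons given below carry more information. Among the 281 deep neurons lowest in glial markers, the thinned Ntrk2 share was 17.8%.

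In the thinned neurons Ntrk3, Ngfr and Sort1 were each found more often with a UMI of Ntrk2 than without one. Ntrk3 was detected in 58.0% (47.7 to 67.8) of the 100 neurons with Ntrk2 and in 32.0% (26.5 to 37.9) of the 275 without. Ngfr was detected in 61.0% (50.7 to 70.6) of neurons with Ntrk2 against 34.5% (28.9 to 40.5) without, and in 60.3% (51.9 to 68.3) of the 146 neurons with Ntrk3 against 29.7% (23.9 to 36.1) of the 229 without. Sort1 was detected in 55.0% (44.7 to 64.97) of neurons with Ntrk2 against 37.8% (32.1 to 43.8) without. Without thinning these Sort1 shares were 80.3% and 74.3%, with overlapping intervals, and the other alternatives were not run for this pair. For Bdnf the thinned shares were 59.0% and 61.5%, and for Ntf3 12% and 17.1%, with overlapping intervals. For Ntrk2 with Ntrk3 the intervals overlapped when 2 UMIs were required (34.4% against 21.9%), in neurons with at least 10000 UMIs thinned to 10000 (38.4% against 25.7%), in neurons with at least 40000 UMIs (47.1% among those with Ntrk2) and without the neurons that passed another gate. For Ntrk3 with Ngfr they overlapped among the 281 neurons lowest in glial markers. For Ntrk2 with Ngfr they did not overlap in any of the 7 alternatives run.

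Split by both Trk genes, 58 thinned neurons held both, 42 Ntrk2 alone, 88 Ntrk3 alone and 187 neither. Ngfr was detected in 69.0% (55.5 to 80.5), 50% (34.2 to 65.8), 54.5% (43.6 to 65.2) and 25.1% (19.1 to 32.0) of them. Neurons with neither Trk gene stood below each of the other sets with no overlap, and the other 3 intervals overlapped one another.

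Most neurons with a high level of a Trk gene were high in only 1 of the 2, but high Ntrk3 was no rarer among Ntrk2-high neurons than among the others. Of the 375 neurons, 43 held Ntrk2 and 70 held Ntrk3 at 1 or more UMIs per 10000, and 12 held both. Ntrk3 was high in 27.9% (15.3 to 43.7) of the Ntrk2-high neurons and in 17.5% (13.5 to 21.99) of the others, with overlapping intervals. Without the neurons that passed another gate, 28 were high in Ntrk2, 54 in Ntrk3 and 8 in both, and Ntrk3 was high in 28.6% (13.2 to 48.7) of the Ntrk2-high neurons against 15.4% (11.5 to 20.05) of the others. The 31 neurons high in Ntrk2 alone held 632 CPM of Ntrk2 and 34.8 CPM of Ntrk3, along with 360 CPM of Ngfr (338 to 382) and 65.8 CPM of Sort1 (56.7 to 75.9). The 58 neurons high in Ntrk3 alone held 350 CPM of Ntrk3, 13.5 CPM of Ntrk2, 159 CPM of Ngfr (148 to 170) and 36.0 CPM of Sort1 (30.9 to 41.6). In the 274 neurons high in neither, Ngfr stood at 56.3 CPM (53.5 to 59.3) and Sort1 at 23.0 CPM (21.2 to 24.9). The 12 neurons high in both held 341 CPM of Ntrk2, 212 CPM of Ntrk3, 161 CPM of Ngfr (134 to 192) and 69.3 CPM of Sort1 (51.9 to 90.6). Bdnf was 87.3 CPM (76.7 to 98.8), 71.7 CPM (64.5 to 79.6), 82.8 CPM (79.4 to 86.4) and, in the neurons high in both, 44.4 CPM (30.8 to 62.1), where the last interval overlapped none of the other 3. The summed satellite glia markers Fabp7, Kcnj10, Ednrb and Glul had medians of 0.352, 0.220, 0.486 and 0.745 per 10000 in the sets high in Ntrk2 alone, in Ntrk3 alone, in neither and in both, with 49.1 in the highest neuron of the first.

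**Figure D2:**
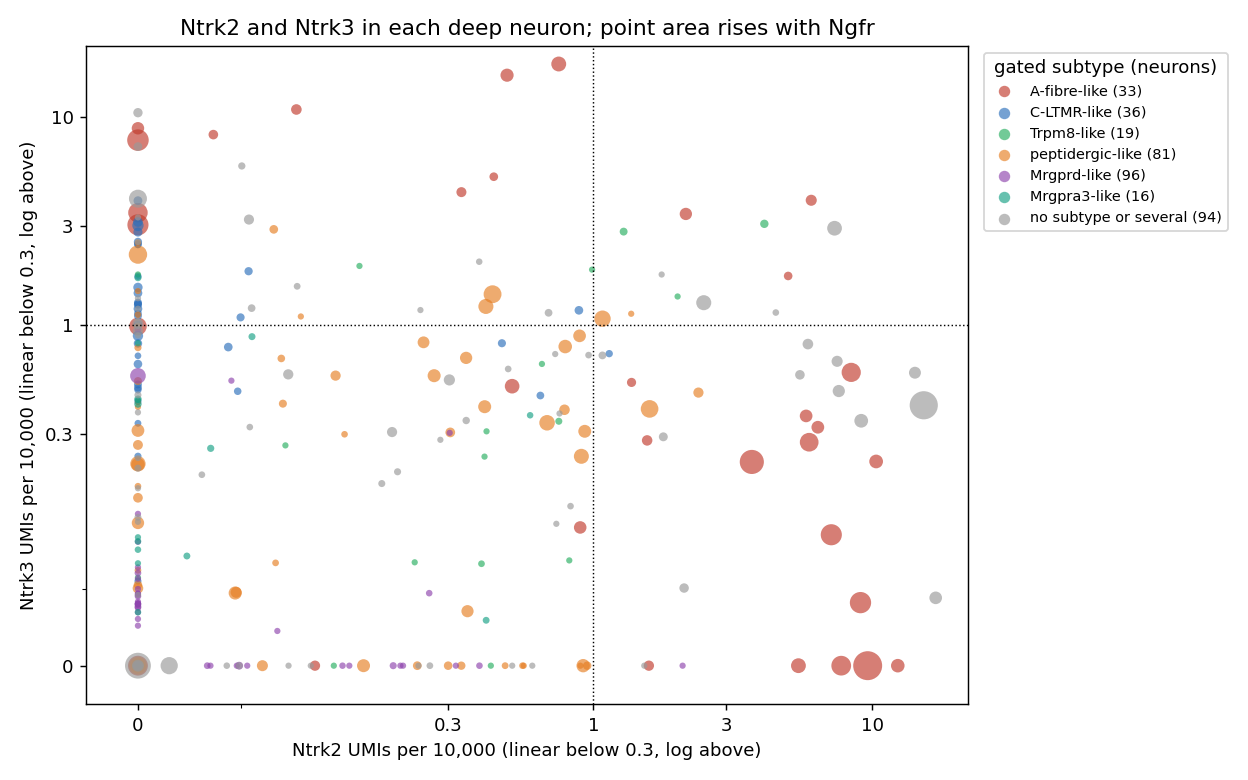
Each point is 1 of 375 deep neurons, placed by Ntrk2 (x) and Ntrk3 (y) in UMIs per 10000, linear below 0.3 and log above; colour is the gated subtype, point area rises with Ngfr, and dotted lines mark 1 per 10000. At 1 or more per 10000 are 31 neurons for Ntrk2 alone, 58 for Ntrk3 alone and 12 for both. Of the 31, 24 hold a UMI of Ntrk3, and of the 58, 22 hold a UMI of Ntrk2.

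Deep neurons were sorted into subtypes by markers that include no member, and 281 passed exactly 1 subtype gate. The A-fibre-like neurons were gated on Nefh, Pvalb, Scn4b, Runx3, Calb1 and Shox2, which mark thickly myelinated touch and muscle afferents. In CPM they were highest of the 6 subtypes for Ntrk2, Ntrk3 and Ngfr with no overlap of intervals. In these 33 neurons Ntrk2 ran from 0 to 12.4 per 10000 with a median of 1.56, and at 330 CPM (311 to 351) it was 7.82 times the level of all other deep neurons (7.21 to 8.48). Ntrk3 ran from 0 to 18.0 per 10000 with a median of 0.511, and at 289 CPM (271 to 308) it was 6.30 times that level (5.80 to 6.85). Ngfr was above 0 in all 33, from 0.768 to 17.5 per 10000 with a median of 3.17, and at 419 CPM (397 to 442) it was 6.40 times that level (5.97 to 6.86). Of the 33 neurons, 18 were high in Ntrk2 and 13 in Ntrk3 at 1 or more per 10000, with 3 high in both. C-LTMR-like neurons had the higher Ntrk3 median, 1.10 per 10000 against 0.511. Of their 36 neurons 20 were high in Ntrk3 and 0 held no UMI of it, whereas 7 of the 33 A-fibre-like neurons held none. The A-fibre-like lead for Ntrk3 thus holds for summed UMIs and not for the median. Without the neurons that passed another gate, 27 A-fibre-like neurons held 308 CPM of Ntrk2 against 20.1 CPM in the other neurons, a ratio of 15.3. Sort1 in A-fibre-like neurons was 52.2 CPM (44.6 to 60.7), or 1.93 times the other neurons (1.63 to 2.28). Sorcs2 was also highest there at 8.70 CPM (5.78 to 12.6), 2.95 times the other neurons (1.86 to 4.54). Its interval overlapped those of Trpm8-like neurons at 6.31 CPM (2.89 to 11.98) and peptidergic-like neurons at 5.37 CPM (3.72 to 7.51). All 9 Sorcs2 UMIs of the Trpm8-like neurons lay in 1 of 19 neurons, so that level does not describe the subtype.

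C-LTMR-like neurons, gated on Tafa4, Slc17a8 and Th, which mark unmyelinated fibres for gentle touch, had Ntrk3 with little Ntrk2. Of the 3 markers Tafa4 (504 CPM) and Slc17a8 (43.6 CPM) were highest in this group, but Th was not: it stood at 1.64 CPM, with 5 UMIs in 5 of 36 neurons, against 14.02 CPM in Trpm8-like and 6.32 CPM in peptidergic-like neurons. Ntrk3 was found in all 36 of them, from 0.110 to 3.97 per 10000 with a median of 1.10, and stood at 121 CPM (109 to 134), 1.92 times the other neurons (1.71 to 2.14). Ntrk2 stood at 12.5 CPM (8.82 to 17.1), with 28 of the 36 at 0. Ngfr was also in all 36, from 0.119 to 1.95 per 10000, at 60.02 CPM (51.6 to 69.4).

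Trpm8-like neurons, gated on the cold receptor Trpm8 and on Foxp2, held both Trk genes with little Ngfr. In the 19 neurons Ntrk2 stood at 58.2 CPM (46.4 to 72.1) and Ntrk3 at 62.4 CPM (50.1 to 76.8), each found in 15 of 19. All 3 neurons high in Ntrk2 were among the 6 high in Ntrk3. Ngfr stood at 6.31 CPM (2.89 to 11.98), near the erythroid-like 9.64 CPM, but per cell at 0.474 against 0.105 UMIs. Sort1 stood at 58.9 CPM (47.0 to 72.9), with 18 of 19 holding a UMI. Of these 19 neurons 6 passed the gate of another class, while the satellite list had a median of 0.143 and a highest value of 7.01 per 10000.

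Peptidergic-like neurons, gated on Tac1, Adcyap1 and Calca, which mark fibres for heat and pain, had Ngfr without much of either Trk gene. In the 81 neurons Ngfr ran from 0 to 6.57 per 10000 with a median of 0.812 and stood at 148.8 CPM (139 to 159), 1.71 times the other neurons (1.59 to 1.85), while Ntrk2 was at 20.9 CPM and Ntrk3 at 34.8 CPM. The 96 Mrgprd-like neurons, a class of fine skin fibres gated on Mrgprd, Lpar3 and Lpar5, were lowest for every receptor except Sorcs2 and Ngfr, with 3.53 CPM of Ntrk2 (2.47 to 4.88), 5.09 CPM of Ntrk3, 9.31 CPM of Ngfr and 12.4 CPM of Sort1 (10.4 to 14.8). In CPM these Ntrk2, Ntrk3 and Ngfr levels were at or under the erythroid-like level. Per cell they were 0.375, 0.542 and 0.990 UMIs against 0.0965, 0.113 and 0.105, and the part of free RNA was not tested. Of the 95 Ngfr UMIs in the Mrgprd-like neurons 63 lay in 1 neuron, and 74 of the 96 neurons held none. The Ngfr value per cell thus rests largely on that neuron. The 16 Mrgpra3-like neurons, gated on the itch receptor Mrgpra3 with Mrgprx1, Sst and Nppb, held 30.2 CPM of Ntrk3 (23.4 to 38.3), found in 15 of 16, and 8.11 CPM of Ntrk2 (4.80 to 12.8). The 94 neurons with no subtype gate or several passed held 124 CPM of Ntrk2 and 78.2 CPM of Ntrk3, and 16 of them were high in Ntrk2 and 20 in Ntrk3, so the subtype gates do not cover all Trk-high neurons.

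**Figure D3:**
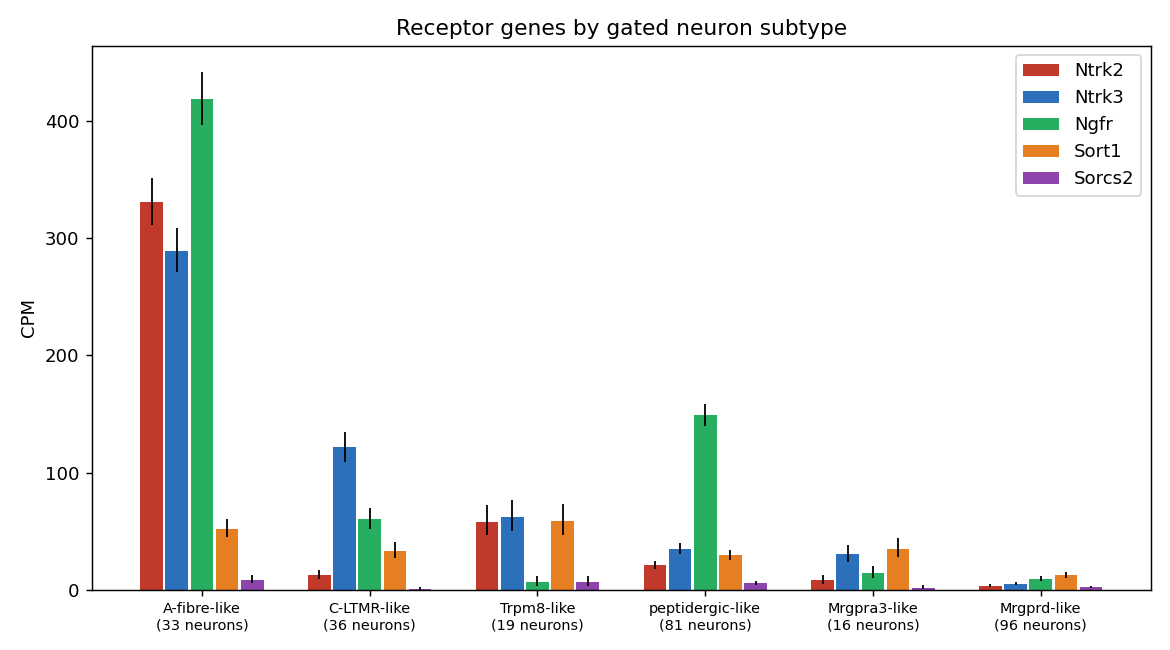
Receptor levels (CPM) in 6 gated subtypes of deep neurons, with exact 95% Poisson intervals as lines. A-fibre-like neurons hold Ntrk2 (330 CPM), Ntrk3 (289 CPM) and Ngfr (419 CPM), C-LTMR-like neurons mainly Ntrk3 (121 CPM) and peptidergic-like neurons mainly Ngfr (148.8 CPM).

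The high neurons were set beside Shox2 and Runx3, transcription factors known from TrkB touch neurons and from TrkC muscle afferents. This pair of genes was chosen with the data known. In the 33 neurons with at least 2 UMIs of Shox2 and fewer of Runx3, Ntrk2 ran from 0 to 16.9 per 10000 with a median of 5.79 and stood at 506 CPM (482 to 530), beside 66.7 CPM of Ntrk3 (58.3 to 76.0). In the 4 neurons with at least 2 UMIs of Runx3 and fewer of Shox2, Ntrk3 ran from 5.83 to 10.9 per 10000 and stood at 826 CPM (745 to 913), beside 8.60 CPM of Ntrk2 (2.34 to 22.03). A further 4 neurons held both factors, with Ntrk3 from 4.37 to 15.9 per 10000 at 915 CPM (833 to 1003) and Ntrk2 at 30.2 CPM (16.9 to 49.8). The 8 neurons with at least 2 Runx3 UMIs were therefore all high in Ntrk3, and their highest Ntrk2 level was 0.490 per 10000. With 1 UMI of Runx3 as the limit this no longer held: Runx3 was then found in 11 neurons high in Ntrk3 alone, in 2 high in Ntrk2 alone, in 6 high in neither and in 0 high in both. The 334 neurons with neither factor held 22.3 CPM of Ntrk2 and 43.2 CPM of Ntrk3.

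The genes most like each receptor were ranked over the 375 thinned neurons by Pearson correlation of log(1 + UMIs), among 8547 genes found in at least 20% of them. The correlations are descriptions across cells of 1 library that share its free RNA. For Ntrk2 the 5 highest were Adcy1 (0.59), Pcdh7 (0.59), Pcp4 (0.56), Sparcl1 (0.54) and Tmem163 (0.53), and among the lowest were Serpinb6a (-0.61) and Tshz2 (-0.57). For Ntrk3 they were Scn1a (0.56), a sodium channel, Zfp521 (0.49), Pde4d (0.47), Tafa2 (0.47) and Ly6h (0.47), with Ppp1r2 (-0.54), Tmem233 (-0.51) and Cd24a (-0.50) lowest. For Ngfr they were S100b (0.64), Thy1 (0.64), Kcna1 (0.60), a potassium channel of fast-firing neurons, Ly6h (0.58) and Fam57b (0.56), with Tshz2 (-0.52), Synpr (-0.51) and Ptma (-0.51) lowest. Sort1 reached at most 0.40 (Rora) and Sorcs2 0.34 (Nfia), which are weak in counts this sparse. Among the receptors themselves Ntrk2 and Ngfr stood at 0.43, Ntrk3 and Ngfr at 0.28 and Ntrk2 and Ntrk3 at 0.12.

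Schwann-like cells differed by their myelin level. Between low-myelin and myelinating Schwann-like cells, 4 of the 6 members with enough UMIs were higher in the low-myelin cells and none was lower, where 14.5% of the 15281 genes tested were higher and 4.44% lower. Ntrk3 stood at 97.8 against 13.5 CPM, a ratio of 7.24 (6.21 to 8.48). Sorcs2 stood at 72.6 against 13.4 CPM, a ratio of 5.44 (4.65 to 6.39), and Ngfr at 57.1 against 11.2 CPM, a ratio of 5.09 (4.29 to 6.08). Bdnf was also called, but at 2.41 against 0.840 CPM both values lay under the erythroid-like background. Ntrk2 stood at 77.5 against 43.1 CPM, a ratio of 1.80 (1.63 to 1.98), and Sort1 at 99.5 against 116 CPM, a ratio of 0.858 (0.803 to 0.916).

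Cut into 4 bands of a summed list of myelin genes, among them Prx, Mag, Ncmap and Drp2, Ntrk3 stood at 95.8, 99.5, 18.8 and 7.71 CPM from the lowest band to the highest. Sorcs2 stood at 83.0, 63.9, 19.2 and 6.91 CPM and Ngfr at 53.3, 60.3, 15.1 and 6.91 CPM. In the highest band Ntrk3 and Ngfr were under the erythroid-like levels of 10.4 and 9.64 CPM, and Sorcs2 was above its level of 3.56 CPM. Ntrk2 stood at 76.2, 78.5, 50.6 and 34.9 CPM, with a smaller ratio between the outer bands. Sort1 stood at 95.3, 103, 129 and 102 CPM and was highest in the band from 100 to 400 per 10000. The bands are ranges of a score and not types: 590 cells lay within 20% of the limit at 30, 205 within 20% of that at 100 and 114 within 20% of that at 400.

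**Figure D4:**
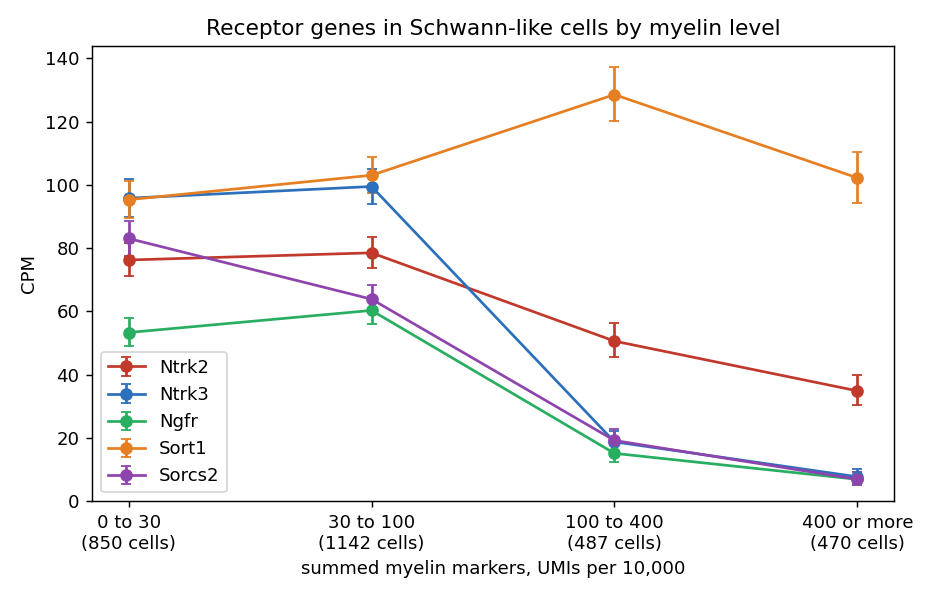
Receptor levels (CPM) in Schwann-like cells cut into 4 bands of summed myelin gene level (UMIs per 10000), with exact 95% Poisson intervals and the number of cells per band. Ntrk3, Ngfr and Sorcs2 are lower in the bands over 100 than in those under it, and Sort1 lies between 95.3 and 129 CPM.

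Fibroblast-like cells also divided by receptor. The 239 cells high in Ccl11, a chemokine gene, held 459 CPM of Ntrk2 (439 to 480), found in 237 of them, and 112 CPM of Ngfr (102 to 122), 2.90 times (2.73 to 3.08) and 2.80 times (2.48 to 3.16) the other fibroblast-like cells. The 455 cells high in Slc6a13, a transporter gene of the meninges, held 280 CPM of Ntrk3 (267 to 294), found in 429 of them, 2.36 times the other fibroblast-like cells (2.21 to 2.53). In the 196 cells high in Slc4a10, Ngfr was 8.88 CPM (5.85 to 12.9), at the free RNA level, with 68.7 CPM of Ntrk2 and 114 CPM of Ntrk3.

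Gated Bdnf UMIs came mainly from deep neurons. Deep neurons held 84.7% of all gated Bdnf UMIs and 318 of 375 held at least 1, or 60.8% after thinning (55.7 to 65.8) against 6.67% in erythroid-like cells. Peptidergic-like neurons led, from 0 to 6.54 per 10000 with a median of 1.51, at 180 CPM (170 to 191), 3.07 times the other deep neurons (2.85 to 3.32). A-fibre-like neurons held 89.8 CPM (79.8 to 101) and Mrgprd-like neurons 67.2 CPM (62.3 to 72.4). C-LTMR-like (21.97 CPM), Mrgpra3-like (21.6 CPM) and Trpm8-like neurons (20.3 CPM) had overlapping intervals. Outside neurons, 61 mural-like cells held 93.1 CPM (68.9 to 123), 1.15 times the deep neurons (0.851 to 1.53). These were 49 UMIs in 21 cells. The summed neuron markers had a median of 1.56 per 10000 (0 to 10.3) in the mural-like cells with a Bdnf UMI and 2.44 (0 to 27.7) in those without, and the part of neuronal RNA in these values was not tested. Fibroblast-like cells held 14.1 CPM (12.5 to 15.8). The level was 22.03 CPM (17.1 to 28.0) in the Slc4a10-high and 18.3 CPM (14.5 to 22.7) in the Ccl11-high cells. Cells high in none of Slc4a10, Ccl11 and Slc6a13 held 19.5 CPM (15.8 to 23.8), and these 3 intervals overlapped. Cells high in several of these genes held 10.3 CPM (5.51 to 17.7) and the Slc6a13-high cells 3.57 CPM (2.24 to 5.40). In fibroblast-like cells the neuron markers had a median of 1.44 per 10000 in the cells with a Bdnf UMI and 1.25 in those without. Satellite glia-like cells (5.05 CPM) and low-myelin Schwann-like cells (2.41 CPM) were near the free RNA level of 3.26 CPM.

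Gated Ntf3 UMIs came mainly from 2 classes, deep neurons with 69.2% and fibroblast-like cells with 26.0%. Ntf3 was also highest in these classes in CPM, at 13.4 and 8.85. Among neurons it was highest in C-LTMR-like at 30.5 CPM (24.6 to 37.4) and Mrgprd-like neurons at 27.4 CPM (24.3 to 30.8), which overlapped, and these were 2.60 times (2.05 to 3.27) and 3.64 times (3.01 to 4.40) the other deep neurons. It was found in 16 of the 36 and 40 of the 96 neurons. A-fibre-like neurons held 9.95 CPM (6.80 to 14.04) and peptidergic-like neurons 3.95 CPM (2.56 to 5.83). In the 19 Trpm8-like neurons no UMI was found, where 3 UMIs would be 2.10 CPM. Among fibroblast-like cells, Ntf3 was led by the Slc6a13-high cells at 21.9 CPM (18.4 to 25.9), with 135 UMIs in 95 of 455 cells. This was 7.45 times the other fibroblast-like cells (5.20 to 10.9) and 1.64 times the deep neurons (1.34 to 1.99), and the same cells led fibroblast-like cells for Ntrk3, the receptor of this ligand. The neuron markers had a median of 1.16 per 10000 in fibroblast-like cells with an Ntf3 UMI and 1.28 in those without. The C-LTMR-like neurons held Ntf3 beside Ntrk3 too, whereas Mrgprd-like neurons held it with Ntrk3 at 5.09 CPM. Ntf5 had 14 UMIs in fibroblast-like cells (0.708 CPM), 7 in deep neurons (0.202 CPM), 1 in low-myelin Schwann-like cells and 0 in the erythroid-like cells.

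**Figure D5:**
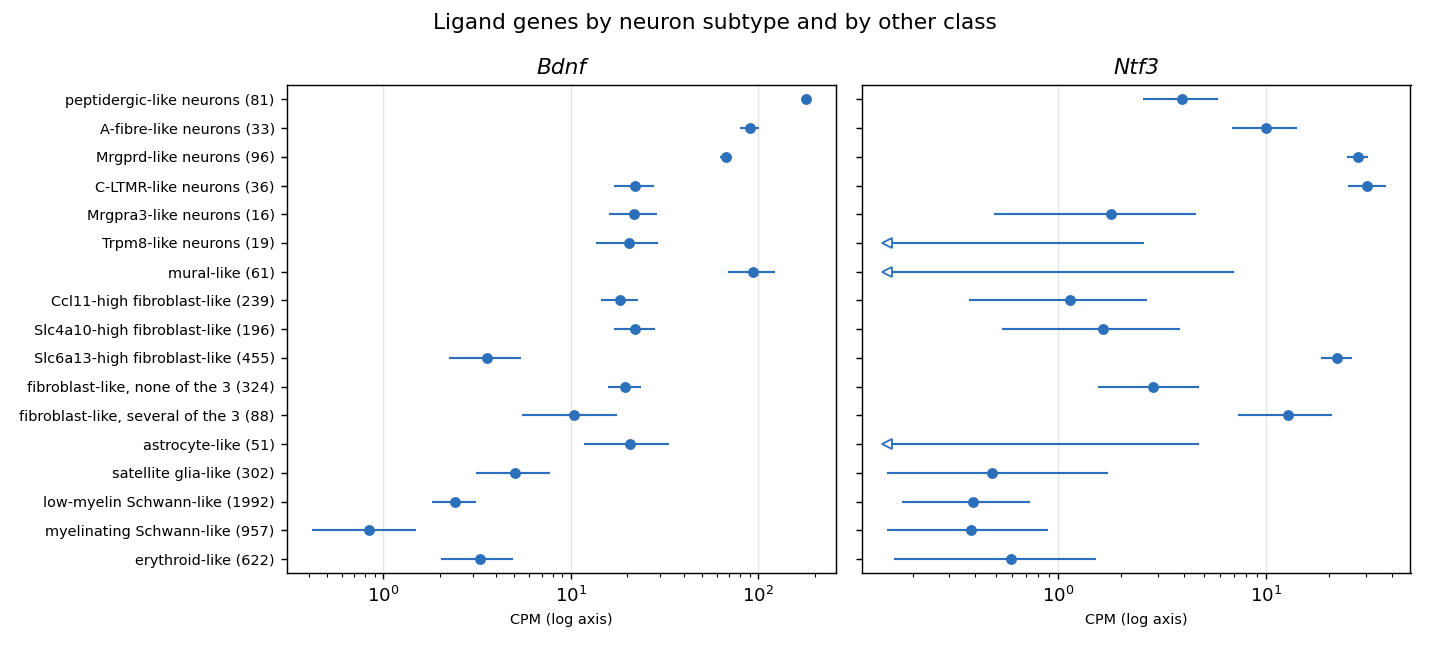
Levels of Bdnf and Ntf3 (CPM, log axis) in 6 neuron subtypes, 5 parts of the fibroblast-like cells and 6 other classes, with exact 95% Poisson intervals and cell numbers in brackets; an open arrow marks 0 UMIs, and lower limits under 0.15 CPM are drawn at 0.15. Bdnf is highest in peptidergic-like neurons (180 CPM) and mural-like cells (93.1 CPM), and Ntf3 in C-LTMR-like (30.5 CPM) and Mrgprd-like neurons (27.4 CPM) and in Slc6a13-high fibroblast-like cells (21.9 CPM).

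The pathway around the members was described by 5 lists in the same comparison of deep neurons with all other gated cells, where 20.9% of all genes were higher, 34.5% were lower and the median log2 ratio was -0.21. In UMIs per cell 35 of the list genes were higher and 1 was lower, against 14 and 14 in CPM, where 74.3% of all genes were higher and 5.28% lower per cell. All directions in this paragraph and in the following paragraphs on the lists are therefore shares of RNA. Of 10 measured genes of precursor processing 2 were higher, 7 were lower and 1 was neither, with a median log2 ratio of -1.95. The higher genes were Pcsk2 (38.3 times, 196 against 5.11 CPM) and Pcsk1 (26.9 times), the convertases of the regulated secretory pathway. Among the lower ones were Furin (ratio 0.437), the convertase of the constitutive pathway, the tissue plasminogen activator gene Plat (0.129), Pcsk5 (0.107), Adam10 (0.325) and Mmp9 (0.0462). Mmp3 and Mmp7 were not measured.

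Of 14 adaptors and effectors of Trk receptors 3 were higher, 1 was lower and 10 were neither, where 20.9% of all genes were higher and 34.5% lower. The share of higher genes in this list was near that of all genes. Shc2 (9.18 times), a docking adaptor, Frs3 (7.0 times), which links Trk receptors to the MAP kinase pathway, and Kidins220 (3.15 times), a scaffold of Trk receptors, were higher, and Gab1 was lower (ratio 0.311). Plcg1 (1.48), Shc1 (0.913) and Frs2 (0.510) were among the rest. Of 8 partners and regulators of Trk receptors 4 were higher, namely Islr2 (32.7 times), Slitrk5 (4.05 times), Ptpro (3.39 times) and the ubiquitin ligase Nedd4l (3.1 times), and Lrig1 was lower (0.0936).

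Of 9 partners of p75NTR 4 were higher and 3 were lower, where 20.9% of all genes were higher and 34.5% lower. The Nogo receptor gene Rtn4r (24.8 times, 27.1 against 1.09 CPM) and Lingo1 (14.1 times, 103 against 7.29 CPM), which form a receptor complex with p75NTR, were higher, as were Bex3 (4.24 times) and Arhgdia (2.41 times). Tnfrsf19 (0.0878), Traf6 (0.208) and Nradd (0.264) were lower. Of the sortilin relatives Sorl1 was higher (5.95 times, 67.2 against 11.3 CPM), Sorcs1 was lower (0.122, 23.6 against 193 CPM), Sorcs3 was neither (1.44) and Grn, which encodes the sortilin ligand progranulin, was lower (0.368).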

How the data were processed

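UMI counts per gene and barcode were deposited by the authors as a 10x matrix of raw counts, not normalised. Per the submitters' processing notes Cell Ranger 3.1.0 and mm10 were used, whereas cellranger 7.0.1 is named per the file headers of the matrix. For intronic reads the setting was not given in the sources used here. UMIs were summed per class and divided by the class total (CPM). Intervals are exact: Poisson for sums, Clopper-Pearson for shares, conditional binomial for ratios. A gene counted as higher or lower at 2-fold with an interval leaving out 1 and at least 20 UMIs. Classes came from summed marker genes per 10000 UMIs, and other classes needed at least 3000 UMIs; 1834 barcodes were in no class, 242 passed several gates and 662 were shallower neurons. Mast cell-like cells (12) are not described. Doublets were not removed. All 13065 barcodes were unique. The members, lists, gates and thresholds were chosen with earlier results of these data known, and the gate levels with values in view; Ret, Gfra2 and Etv1 were dropped from the A-fibre gate after their values were seen. Named genes are the members, the list genes with 20 UMIs and the 5 highest and 3 lowest correlates of each receptor; some are not reported here. The code was tested on simulated data. Python 3.11.15, numpy 2.4.6, scipy 1.17.1, pandas 2.3.3 and matplotlib 3.10.9 were used.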

Additional observations from a re-analysis of the deposited data

Results flagged for a closer look

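Barcodes outside the main comparisons also held the receptor and ligand RNAs. In 662 shallower neuron barcodes, with a median of 1806.5 UMIs and a neuron gate passed, Ngfr stood at 186 CPM (169 to 204), Ntrk3 at 103 CPM, Ntrk2 at 80.6 CPM, Bdnf at 59.2 CPM, Sort1 at 43.5 CPM, and Ntf3 and Sorcs2 at 15.7 CPM each. They were singled out because these barcodes enter no comparison and each gene had more than 3 UMIs there; each value also lay above that of the erythroid-like cells. Ngfr was 98.1 CPM and Sorcs2 3.48 CPM in the deep neurons.

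In the 3638 barcodes that failed the cell filter, with a median of 969 UMIs, Ngfr stood at 36.9 CPM, Ntrk2 at 19.6 CPM, Ntrk3 at 18.2 CPM, Sort1 at 11.6 CPM, Bdnf at 6.55 CPM, Sorcs2 at 5.43 CPM and Ntf3 at 1.03 CPM, again above the erythroid-like levels. Of these barcodes 1040 passed the neuron gate, and in them Ngfr stood at 316 CPM.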

How the results depend on the processing

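No paired analysis was possible because the ganglion is 1 library and the molar libraries, which share replicate numbers, were not analysed here. Counted in UMIs per cell, 7 members were higher and 0 lower in deep neurons (3 and 2 in CPM), 35 list genes were higher and 1 lower (14 and 14), where 74.3% of all genes were higher and 5.28% lower (20.9% and 34.5% in CPM), and Sort1 turned from 0.439 to 3.09. Without thinning the shares of neurons with Ntrk2, Ntrk3, Ngfr, Sort1 and Sorcs2 were 41.9%, 58.7%, 61.6%, 76.8% and 17.6%; with at least 2 UMIs they were 17.1%, 24.0%, 29.9%, 13.9% and 2.40%; in neurons with at least 10000 UMIs, thinned to 10000, they were 20.5%, 28.3%, 35.5%, 22.9% and 4.05%. For Ntrk2 the share was 21.8% in neurons with at least 40000 UMIs, and among the 281 lowest in glial markers Ntrk2 was 17.8% and Ntrk3 31.0%.

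Co-detection of the 3 pairs run in all alternatives (Ntrk2 with Ntrk3, Ntrk2 with Ngfr and Ntrk3 with Ngfr) kept its direction in the 7 alternatives. Ntrk3 among neurons with and without Ntrk2 was 73.2% and 48.2% without thinning, 34.4% and 21.9% with 2 UMIs, and 38.4% and 25.7% at 10000 UMIs, and 47.1% with Ntrk2 at 40000. Ngfr among neurons with and without Ntrk2 was 75.8% and 51.4% without thinning and 22.8% without Ntrk2 at 2 UMIs. Ngfr among neurons with Ntrk3 was 76.4% without thinning (40.6% without Ntrk3), 45.6% with 2 UMIs, 48.7% at 10000 UMIs, 48.2% at 40000 and 48.3% among those 281, where the intervals with and without Ntrk3 overlapped.

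The A-fibre-like ratio of Ntrk2 was 7.16 with a neuron gate of 60, 20.3 among the 281 neurons lowest in glial markers and 15.3 without neurons that passed another gate, the last chosen after seeing the data, and that of Ngfr was 7.74 among these 281. Deep neurons held 82.4% of Bdnf UMIs and 63.6% of Ntf3 UMIs among these 281, and 87.1% of Bdnf UMIs with the other gates doubled. In all, the main results moved beyond their interval or beyond 1.5 times the count in 45 cases, given above, and not in 99. The ratios of single members moved in 23 cases, turned in 1 (Sort1) and did not move in 47. The cause was not tested. With 16 to 36 neurons in most subtypes, depth and cell number limit the subtype levels.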

Other observations

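Low-myelin Schwann-like cells held both cycling and other cells, and the members differed between them. In the 389 cells with Mki67 and Top2a at 5 or more per 10000, Sorcs2 stood at 93.2 CPM (85.6 to 101) against 65.6 CPM (61.8 to 69.5) in the 1603 others. Ntrk2 went the other way, with 55.4 CPM (49.5 to 61.7) against 84.97 CPM (80.7 to 89.4), and Ntrk3 stood at 84.2 CPM (77.0 to 92.0) against 102 CPM (97.7 to 107). Ngfr was 56.4 and 57.4 CPM and Sort1 95.1 and 101 CPM, with overlapping intervals. The cycling cells were deeper, with a median of 14805 against 10182 UMIs.

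Among the thinned neurons Bdnf was most like Fstl1 (0.41), Tac1 (0.41), Ptprd (0.38), Adcyap1 (0.38) and Vgf (0.37) by the same correlation as for the receptors. Tac1 and Adcyap1 are neuropeptide genes that also gate the peptidergic-like neurons. These genes were ranked after the rule for named genes had been set for receptors only.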
